A study of Mus musculus with 4 samples.

Results

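The 4 miRNAs described here are mmu-miR-10a-5p, mmu-miR-10b-5p, mmu-miR-196a-5p and mmu-miR-196b-5p (the species prefix is left out in most places), chosen by name as the guide strands of the miR-10 and miR-196 genes that lie inside the Hox gene clusters. They are 4 of the 1881 mouse miRNAs on the array. miRNAs were measured in the exosome fraction of medium conditioned by 3T3-L1 cells, a mouse preadipocyte line that turns into fat cells in culture. D0 is the day on which the cells were moved from growth medium (low glucose) to a first differentiation medium with 1-methyl-3-isobutylxanthine, dexamethasone and insulin. D4, D12 and D16 count the days after that move, by which time the cells were in a second, high-glucose medium with insulin. All media held serum depleted of exosomes. Each day was represented by 1 single-colour Agilent array of material pooled from several experiments (2 per the methods, 3 per the labels), with no replicate array. Differences between days therefore had no test, and every error given here is the technical error that the scanner software estimated within an array. The day of culture cannot be told apart from the change of medium, from the array or from the pool of material. Fewer exosomes and less of a miRNA per exosome cannot be told apart either. An array of miRNAs holds no protein-coding markers, so the fat cell state of the cultures could not be checked on it.

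Hox genes encode transcription factors that set the identity of body segments and that keep a position-dependent expression in adult tissues, fat depots included. miR-10 and miR-196 are processed from genes embedded among them, and both families repress Hox mRNAs. miR-10b is also known for its expression in mesenchymal and tumour cells, and miR-196a for its part in brown fat formation through Hoxc8. A miRNA recognises its targets mainly through its seed, bases 2 to 8 from the 5′ end.

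In the RefSeq annotation of GRCm38.p6 the miR-10 gene Mir10a lay on chromosome 11 in the HoxB cluster, within the span of Hoxb3 and between Hoxb5 and Hoxb4. Its sister gene Mir10b lay on chromosome 2 in the HoxD cluster, within the spans of both Hoxd3 and Hoxd4. miR-196a-5p has 2 genes with the same mature sequence, Mir196a-1 on chromosome 11 between Hoxb13 and Hoxb9, and Mir196a-2 on chromosome 15 between Hoxc10 and Hoxc9. Mir196b lay on chromosome 6 in the HoxA cluster, between Hoxa9 and Hoxa10 on the minus strand. The mature sequences are given with the seed in capitals, because the miRNAs of a pair differ only outside it.
mmu-miR-10a-5p: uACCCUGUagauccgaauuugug
mmu-miR-10b-5p: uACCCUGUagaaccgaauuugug
mmu-miR-196a-5p: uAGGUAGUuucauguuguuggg
mmu-miR-196b-5p: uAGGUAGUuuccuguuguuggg

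The 4 sequences formed 2 seed pairs. Counted from the 5′ end, miR-10b-5p differed from miR-10a-5p by U12A, 1 of 23 bases, with the base of miR-10a-5p written first. miR-196b-5p differed from miR-196a-5p by A12C, 1 of 22 bases. Among the 1608 array miRNAs matched to a RefSeq sequence, no further miRNA carried either seed.

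Of the 4 miRNAs, only miR-10b-5p was detected, and only after the cells had been moved to differentiation medium. The software called a miRNA detected when at least 1 of its probes exceeded 3 times that probe's error. The number detected was 0 of 4 at D0, where 17.5% of all miRNAs were detected. It was 1 of 4 at D4, D12 and D16, beside 22.6%, 21.6% and 20.2% of all miRNAs. miR-10b-5p was thus one of the 67 miRNAs, 3.56% of the 1881, that were not detected at D0 and detected on each of the later days. miR-10a-5p, miR-196a-5p and miR-196b-5p were among the 1414 miRNAs never detected. The other calls of detection that were tried gave the same counts.

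**Figure D1:**
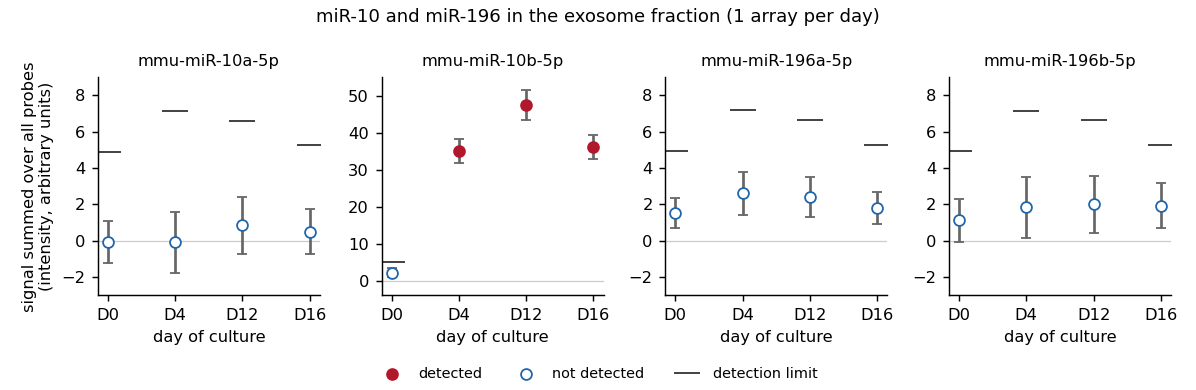
Signal summed over all probes of each miRNA (y axis, intensity in arbitrary units) on the D0, D4, D12 and D16 arrays. Bars are the technical error within 1 array, filled points are detected and dashes mark the limit of undetected ones, summed over their probes. The scale of miR-10b-5p is wider than that of the others. miR-10b-5p lay below its limit of 4.97 at D0 and between 35.0 and 47.4 afterwards, and the other miRNAs stayed below their limits on all 4 arrays.

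The signal of mmu-miR-10b-5p was 35.0 ± 3.19 on the D4 array, 47.4 ± 4.09 on D12 and 36.1 ± 3.14 on D16. At D0 its probes summed to 2.12 ± 1.17, which was 1.81 times the error and below the limit of 4.97 (3 times the summed probe error). The 3 later arrays were thus high and the D0 array was low, with no overlap of the values and their errors. Set against the D0 limit, the signal was at least 7.04-fold higher at D4 (± 0.642), at least 9.54-fold higher at D12 (± 0.822) and at least 7.27-fold higher at D16 (± 0.632). So miR-10b-5p was raised above 2-fold on each day, and the other 3 miRNAs, detected on neither day, had no ratio. Among all miRNAs detected on at least 1 of the paired days, 55.9%, 44.3% and 29.3% were raised for D4, D12 and D16.

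Signals above those at D0 were common on these arrays. Among the miRNAs that appeared after D0, the bound of miR-10b-5p was at the upper end. The 283 miRNAs found on every array had median D4, D12 and D16 signals of 2.59, 1.99 and 1.32 times D0 (log2 1.37, 1.00 and 0.41). Over the 67 miRNAs that appeared after D0, the median lower bounds for the same days were 2.05, 2.23 and 1.41. A higher bound than that of miR-10b-5p was held by 3 of the 67 on D4, by 5 on D12 and by 4 on D16. These bounds set the later signals against a limit at D0. Their order therefore mainly follows the later signals and does not rank the size of a rise. Signals at D0 were the lowest of the 4 arrays and their median spot-to-spot variation was 21.1%, against 7.19% to 8.07% on the others. The part of these array differences in the difference of miR-10b-5p from D0 was not tested.

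The bound depended on how the arrays were scaled to each other, and so did the share of all miRNAs raised above 2-fold. The spike-in RNAs, synthetic molecules added while the samples were processed, were 1.82, 1.72 and 1.27 times as bright at D4, D12 and D16 as at D0. With the arrays scaled by them, the bounds for these days were 3.86, 5.54 and 5.71. With the arrays scaled by the 75th percentile of the commonly detected miRNAs, it was 1.65, 2.90 and 3.21, so the D4 value no longer passed 2-fold. With the median ratio to D0 of those miRNAs as the scale, it was 2.72, 4.78 and 5.49. The size of a spot as the software took it, a factor of the total signal, was 0.780 at D4 and 0.760 at D12 but 0.6 at D0 and D16. With this factor taken out, the bounds were 5.42, 7.54 and 7.27, so the lead of D12 over D16 was within the technical error. The share of all miRNAs raised at D12 was 44.3% unscaled, 29.2% without the spot size factor, 21.2% with the spike-in RNAs, 17.4% with the median ratio and 8.68% with the 75th percentile. miR-10b-5p was among the raised miRNAs at D12 and D16 under each of these scalings.

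**Figure D2:**
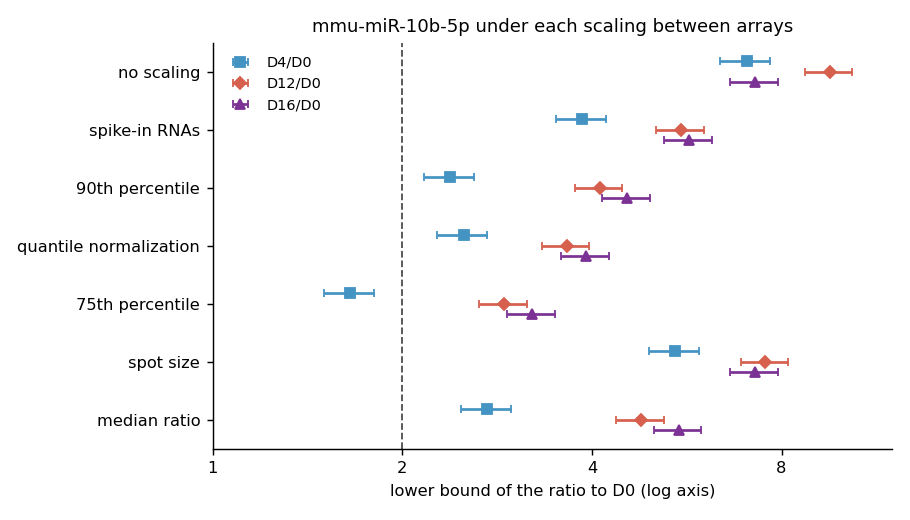
Lower bound of the ratio of miR-10b-5p to D0 (x axis, log scale) under each scaling between arrays (y axis), with the technical error as bars and the 2-fold level dashed. All bounds lay above 2 except that of D4 with the 75th percentile, 1.65. D12 had the highest bound without scaling (9.54) and without the spot size factor (7.54), and D16 under the others.

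Unscaled, the single spots told D0 apart from every later day. miR-10b-5p was printed as 2 probes with 30 spots in all. The background-subtracted spot signals at D0 ran from -3.10 to 13.5 with a median of 5.25, and 0 of 30 spots were well above background. At D4 they ran from 24.7 to 121 (median 68.3), at D12 from 34.5 to 148 (median 84.5) and at D16 from 33.0 to 163 (median 84.0). All 30 spots were well above background on each later array, and each was above the highest D0 spot. By the median ratio the D4 array was 2.59 times as bright as D0. Divided by that, the lowest D4 spot would lie below the highest D0 spot, so the full separation depended on the scaling. On the uneven D0 array the median was 3.69 over the 18 spots in the left part and 6.97 over the 12 spots in the right part. At D4 the same parts gave medians of 62.8 and 69.0, so both parts of the array had far higher medians than at D0. None of these spots was saturated.

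**Figure D3:**
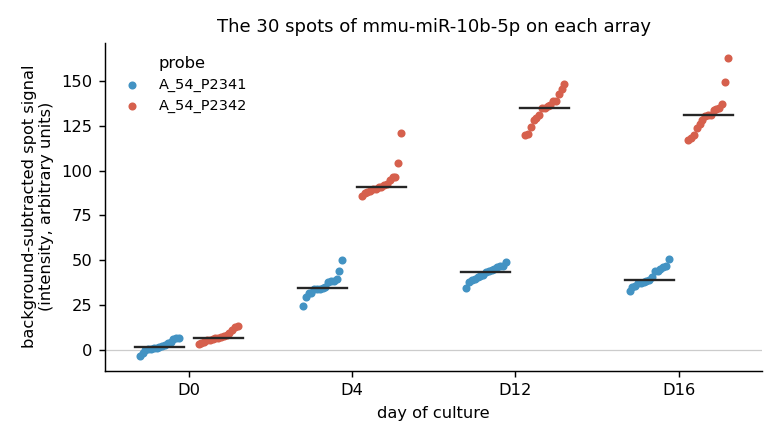
Background-subtracted signal (y axis, intensity in arbitrary units) of the 30 spots of miR-10b-5p on each array, by probe, with the median of each probe as a line. Spots are printed copies on 1 array and no replicates of a day. Unscaled, the highest D0 spot, at 13.5, lay below the lowest spot of every later day, 24.7 at D4.

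The D0 value of miR-10b-5p was low but not centred on 0. One probe (A_54_P2341) gave 0.489 ± 0.821 at D0, then 9.65 ± 1.53, 11.5 ± 1.59 and 8.66 ± 1.23 at D4, D12 and D16. The other (A_54_P2342) gave 1.63 ± 0.836, then 25.3 ± 2.80, 35.9 ± 3.76 and 27.5 ± 2.89. Neither passed 3 times its error at D0, both did on all later days, and both had their highest unscaled value at D12. The median of 1000 negative control spots at D0 was 0.907 and their 99th percentile was 10.5, and the D0 median of 5.25 for miR-10b-5p lay between them. That percentile describes single spots, which spread more widely than a median of 30 spots, so it does not place the D0 median within background.

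Between the later arrays, where miR-10b-5p was detected on both sides, the ratios were smaller and depended on the scaling. At D12 it was 1.36 ± 0.17 times its D4 signal, while the median of the 374 miRNAs detected on both days was 0.865. The ratio was 1.57 times that median, and 40 of the 374 had a higher one. The separate probes gave 1.19 ± 0.251 and 1.42 ± 0.216. The ratio stayed above 1 under all 6 other scalings, from 1.39 to 1.76.

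From D12 to D16 the signal of miR-10b-5p was 0.762 ± 0.0933 of its D12 value unscaled, 0.965 without the spot size factor and 1.03 to 1.15 under the 5 other scalings, so this step had no settled direction. The median of the 371 miRNAs detected on both days was 0.703. The median spot was nearly the same on both arrays, with a ratio of 0.993. The median spot does not carry the spot size factor. Over the whole span from D4 to D16 the ratio was 1.03 ± 0.13 unscaled, beside a median of 0.592 over 356 miRNAs, and 1.34 to 2.02 under the 6 other scalings. Among those 356 miRNAs, the unscaled ratio of miR-10b-5p stood at the 90.2 percentile.

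mmu-miR-10a-5p shares the seed of miR-10b-5p but gave no signal above background. Its 2 probes summed to -0.0814 ± 1.16, -0.0914 ± 1.68, 0.853 ± 1.55 and 0.491 ± 1.24 in the order of the days, all within 1 error of 0. The limits, each the sum of the limits of its probes, were 4.91, 7.12, 6.60 and 5.25, and the 4 values had no order beyond their errors. Of its spots on all arrays, 1 was well above background, at D12 with a signal of 25.5. A sum below these limits does not by itself exclude detection, because 1 probe above its own limit is enough. An amount of miR-10a-5p that lifted neither probe above its own limit would have gone undetected.

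mmu-miR-196a-5p also stayed below detection but on the positive side of 0. Its 4 probes summed to 1.54 ± 0.825, 2.60 ± 1.20, 2.40 ± 1.11 and 1.78 ± 0.882 at D0, D4, D12 and D16, with limits of 4.94, 7.17, 6.64 and 5.28. All 16 of its probe values (4 probes on 4 arrays) were above 0, and the sums were 1.87 to 2.17 times their errors. Ranked by signal over error, it stood above 93.1% to 94.1% of the 1414 never-detected miRNAs on each array. A single spot at D4 was well above background (48.5), and the software had set it aside as an outlier. The values of the 4 days overlapped within their errors, so no order of the days could be given.

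mmu-miR-196b-5p summed to 1.12 ± 1.16, 1.85 ± 1.69, 2.01 ± 1.56 and 1.94 ± 1.25 on the same days, with limits of 4.93, 7.15, 6.62 and 5.28. All 8 of its probe values were above 0, with sums 0.964 to 1.56 times their errors, above 82.7% to 89.7% of the never-detected miRNAs. The 4 days overlapped here too. No miR-196 miRNA therefore had a level that could be followed over time.

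The other mature miRNAs of the same genes, the passenger strands and both strands of miR-615 (encoded on chromosome 15 within Hoxc5), were mostly below detection as well. Of these 7, miR-615-3p was detected, at D4 (1.98 ± 0.589) and at D12 (1.65 ± 0.543), through 1 of its 4 probes, and the others were not. That probe reached 2.98 times its error at D0 and 3.36 and 3.05 times at D4 and D12, so its D0 and D12 values lay on either side of the limit of 3 with little between them. miR-196b-3p was not detected, with sums of 2.36, 4.67, 4.31 and 2.93 and 8 of 8 probe values above 0. miR-615-5p had 0 of 16 probe values above 0. In all, 2 of the 11 Hox cluster miRNAs were detected on any day, beside 24.8% of all miRNAs (467 of 1881), and miR-10b-5p alone of them at D16. Among the 1881 miRNAs, 283 were detected on all days and none of these was one of the 11.

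**Figure D4:**
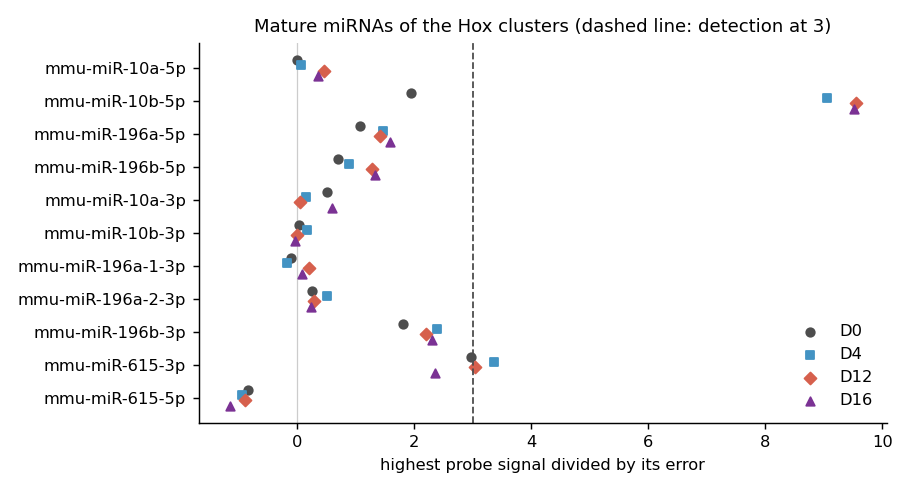
Highest probe signal divided by its error (x axis) for the 11 mature miRNAs of the Hox clusters (y axis) on each array, with the detection limit of 3 dashed. miR-10b-5p moved from below the limit at D0 to far above it on the other days, and miR-615-3p sat at the limit, at 2.98 at D0 and 3.36 at D4.

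miR-10 has relatives outside the Hox clusters, miR-99a, miR-99b and miR-100, whose sequences resemble it but carry a different seed. They are printed with their seeds in capitals because they share runs of 10 or more bases with miR-10.
miR-99a-5p: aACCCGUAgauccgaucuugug
miR-99b-5p: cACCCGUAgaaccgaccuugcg
miR-100-5p: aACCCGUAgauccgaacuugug

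miR-10a-5p shared 11 bases, GUAGAUCCGAA, with miR-100-5p and 10 bases, GUAGAUCCGA, with miR-99a-5p. miR-10b-5p shared 10 bases, GUAGAACCGA, with miR-99b-5p. miR-10a-5p and miR-10b-5p shared 11 bases with each other, as did miR-196a-5p and miR-196b-5p, and the miR-196 miRNAs shared such a run with no other of the 1608 miRNAs matched to a sequence.

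The relatives gave ratios on either side of that of miR-10b-5p between D4 and D12. miR-99a-5p gave 3.00 ± 0.879 at D0, then 75.9 ± 6.47, 174 ± 14.7 and 109 ± 9.38 at D4, D12 and D16. miR-100-5p was not detected at D0 (limit 4.93), then gave 10.7 ± 1.61, 24.5 ± 2.63 and 16.3 ± 1.86. Unscaled, both were highest at D12, as was miR-10b-5p. From D12 to D16 their unscaled ratios were 0.631 ± 0.0759 and 0.666 ± 0.104, which overlapped within the errors with 0.762 ± 0.0933 for miR-10b-5p. Under the other scalings they were 0.950 and 1.00 at most, while that of miR-10b-5p passed 1 under 5 of the 6. The D12 to D4 ratios of miR-99a-5p and miR-100-5p were 2.29 ± 0.274 and 2.28 ± 0.42 against 1.36 ± 0.17 for miR-10b-5p. The ratio of miR-100-5p sets both of its probes at D12 against 1 at D4, where the other was not detected. Summed over all probes, miR-100-5p gave 12.8 ± 2.01 at D4 and 24.5 ± 2.63 at D12, a smaller step.

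miR-99b-5p, which shares its run with miR-10b-5p, had its peak at D4. It gave 4.12 ± 0.919, 36.9 ± 3.27, 17.2 ± 2.05 and 11.8 ± 1.53 from D0 to D16. Its D12 to D4 ratio was 0.467 ± 0.0693, so it was lower at D12 than at D4, where miR-10b-5p was higher, under all 6 other scalings as well. The signal of miR-10a-5p stayed at background on the arrays where miR-10b-5p, miR-99a-5p and miR-100-5p were detected. How far any of these miRNAs binds the probes of another was not tested.

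**Figure D5:**
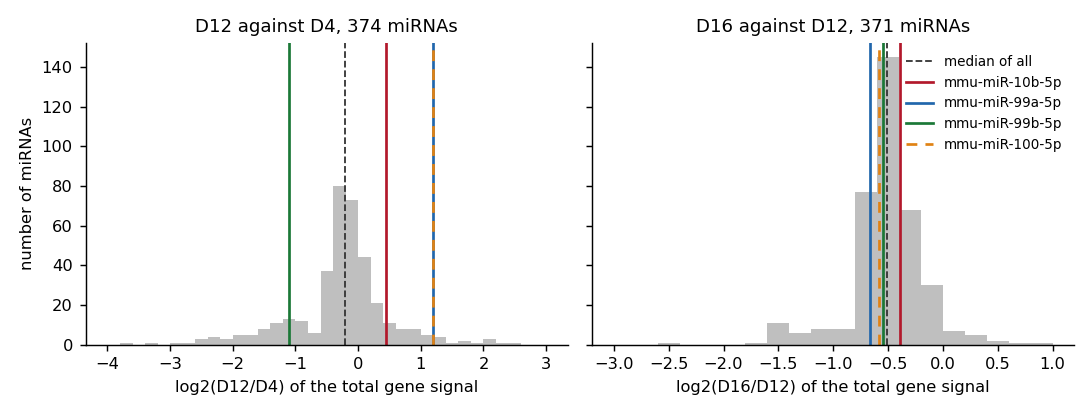
Distribution over miRNAs of the unscaled log2 ratio of D12 to D4 (left) and D16 to D12 (right), with the number of miRNAs on the y axis, the median dashed and miR-10b-5p and its relatives as coloured lines. From D4 to D12, miR-10b-5p (log2 0.44) lay above the median of -0.21 and miR-99b-5p lay below. miR-99a-5p and miR-100-5p lay higher still on nearly the same place, with 1 of the 2 probes of miR-100-5p not counted at D4. From D12 to D16 all of them lay close to the median of -0.51.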

How the data were processed

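Medium of 3T3-L1 cells was ultracentrifuged, and the RNA of the pellet was labelled with Cy3 and hybridised to 1 SurePrint G3 mouse miRNA array per day, after equal protein amounts of the samples of a day had been mixed. The authors deposited 4 scanner tables of intensity values from Agilent Feature Extraction 11.0 (11.0.1.1 per the file headers), each with 56430 spots, flags for detection, background and saturation, and a total gene signal per miRNA. That signal is the sum of the probes above 3 times their error, is listed as 0.1 where no probe passed, and is background-subtracted but not scaled between arrays. The study's methods name the division of each day by D0 and no scaling between arrays. Unscaled values were the main setting here, and they are not on the scale of the study's own ratios. For miR-99a-5p the study lists lower ratios to D0 than the unscaled 25.3, 57.8 and 36.5 at D4, D12 and D16. The steps behind that difference are not stated in the study's methods. The unscaled ratios of miR-99a-5p set both of its probes against 1 at D0, where the other was not detected. An undetected miRNA at D0 was set at its limit, so that ratios are lower bounds. With 1 array per day no test was possible, and precision is limited by how many arrays there are.

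Values were read with Python 3.11.15, numpy 2.4.6 and pandas 2.3.3, and plotted with matplotlib 3.10.9. Normexp correction (offset 50) used limma 3.58.1 in R 4.3.3. The alternatives tried were array scaling to the spike-in RNAs, to the 90th or 75th percentile or by quantiles, and (chosen after seeing the data) to the median ratio or the spot size, other probe sums, median spots, normexp and other floors and detection calls. The recovery of planted changes by calls of 2-fold was tested on simulated data, without a count of false calls. Named miRNAs are the 4 chosen ones, the other mature Hox cluster miRNAs, miR-99 and miR-100, and any miRNA sharing 10 or more bases with a chosen one. A rule for naming the miRNAs most alike needed detection on all 4 arrays, which no chosen miRNA had. The miRNAs and lists were chosen with earlier results of these data known. The file headers name another mouse build (mm9) than RefSeq's GRCm38.p6, so no coordinates are given.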

Additional observations from a re-analysis of the deposited data

How the results depend on the processing

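The counts of miRNAs detected on each day, and the count raised above 2-fold at D12 and at D16, were the same under every alternative run. At D4 the count of 1 became 0 with scaling by the 75th percentile (bound 1.65) and with normexp correction (ratio 1.89). The D12 to D0 bound of miR-10b-5p, 9.54, stayed above 2 but moved widely. It was 2.90 with the 75th percentile, 4.11 with the 90th percentile, 3.65 with quantile normalization, 5.54 with the spike-in RNAs, 4.78 with the median ratio and 7.54 without the spot size factor. As plain ratios, which are no bounds, it was 22.4 with all probes summed, 16.1 with the median spot and 2.22 with normexp, whose offset of 50 is large beside these spot signals. Set against the lowest signal detected at D0 in place of its own limit, it was 38.9, which is above the ratio of the summed probes and so no lower bound. All these alternatives gave 1.65 to 28.7 for D4 to D0 and 2.19 to 29.7 for D16 to D0, with the highest values again from that floor. Probes detected on both days gave no ratio to D0, because no probe of miR-10b-5p was detected there.

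The median ratio, the spot size and all alternatives for ratios between the later days were chosen after seeing the data. The D12 to D4 ratio of miR-10b-5p, 1.36, was 1.75 with the 75th percentile, 1.73 with the 90th percentile, 1.76 with the median ratio and 1.18 with normexp. The D16 to D12 ratio, 0.762, reversed to 1.11 with either percentile, 1.07 with quantile normalization, 1.03 with the spike-in RNAs and 1.15 with the median ratio, and was 0.965 without the spot size factor, 0.993 with the median spot and 0.986 with normexp. The D16 to D4 ratio, 1.03, was 1.94 and 1.91 with the 75th and 90th percentiles, 1.57 with quantile normalization, 1.48 with the spike-in RNAs, 2.02 with the median ratio, 1.34 without the spot size factor and 1.23 with the median spot. The cause of these shifts was not tested. In simulated data with 60 of 329 miRNAs changed, quantile normalization recovered 30 of 30 raised and 29 of 30 lowered miRNAs. With 200 changed it recovered 90 and 81 of 100. The simulation held only the miRNAs detected at D0, with as many raised as lowered. The quantile values given here were normalized over all 1881 miRNAs, and the recovery in that setting was not tested. Unscaled values recovered all in both cases, but the planted changes were large enough to pass 2-fold unscaled. False calls were not counted, so the simulation gives no ranking of unscaled against quantile values. No paired analysis was possible because each day has 1 array.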

Other observations

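The miRNAs whose course was most like that of miR-10b-5p over D4, D12 and D16 were sought among the other 66 miRNAs that appeared after D0, a search chosen after seeing the data. Likeness was the mean absolute difference of log2 signal over the 3 days, each miRNA centred on its own mean. miR-151-5p was nearest at 0.03, with signals of 32.8 ± 2.95, 44.1 ± 3.59 and 32.1 ± 2.67. miR-500-3p followed at 0.04 with 5.30, 7.58 and 5.83, and miR-185-5p at 0.04 with 4.77, 6.13 and 4.60. Each of the miRNAs named here had its highest unscaled signal at D12, though the days of miR-500-3p and miR-185-5p overlapped within their errors. Of the 67 miRNAs, 38 were higher at D12 than at D4 and 65 were lower at D16 than at D12, both unscaled. How many of them did both was not counted. Over all 374 miRNAs detected at both D4 and D12, the median unscaled ratio of D12 to D4 was 0.865. Over all 371 miRNAs detected at both D12 and D16, the median unscaled ratio of D16 to D12 was 0.703. A lower unscaled signal at D16 was thus common on the arrays and not particular to the 67.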
